A study of Mus musculus with 54 samples.

Results

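Border macrophage marker genes, a set of 8 genes chosen by symbol (Mrc1, Lyve1, Cd163, Folr2, Pf4, Cbr2, F13a1 and Clec12a), were examined in bulk RNA-seq of sorted mouse brain macrophages. All 8 were found among the 33280 gene symbols of the count tables. The data comprised 54 libraries in 18 groups of 3 mice each, from sdCAMs (subdural CNS-associated macrophages, those of the leptomeninges and perivascular spaces) and from microglia (MG). Wild-type (WT) mice and mice labelled Ccr2 KO (Ccr2-/- below) were either left untreated and given PBS, given the vehicle (CTL) and later lipopolysaccharide (LPS), or given BLZ945 and later LPS. BLZ945 inhibits the CSF-1 receptor and depletes brain macrophages, which then repopulate, and LPS is a bacterial endotoxin that triggers systemic inflammation. Reporter mice of genotype Ccr2CreERT2/CreERT2:R26tdT/tdT all received BLZ945 and tamoxifen and were later given PBS or LPS. In them both Ccr2 alleles carry the tamoxifen-dependent Cre recombinase, and tamoxifen switches on tdTomato (tdT) in cells that express Ccr2 at that time, so tdT+ sdCAMs descend from such cells, whereas tdT- sdCAMs either do not or escaped labelling. Injection followed the end of treatment by 8 weeks and preceded sorting by 12 h. Groups were of 3 mice, so p-values measure the spread between few animals. Treatment began in young adult mice. Because no PBS group of WT or Ccr2-/- mice had received the vehicle, the effect of LPS and that of the earlier vehicle cannot be told apart there.

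Border macrophages share with microglia a dependence on the CSF-1 receptor but carry their own surface receptors, with which they take up proteins, hyaluronan and cell debris at the vessels and meninges. Of the 8 genes, Mrc1 encodes CD206, the mannose receptor, and sdCAMs were sorted as CD206+ and MG as CD206- cells. Mrc1 was therefore set by the gate between the cell types, and its level is compared between them without a test. Its change with LPS was tested, within each cell type and between them. Its changes with BLZ945, genotype and tdT state were tested within cell types. All were measured in cells selected on CD206, so none is free of the gate. Lyve1 encodes a receptor for hyaluronan, Cd163 the scavenger receptor for haptoglobin-haemoglobin complexes, Folr2 folate receptor beta and Clec12a an inhibitory C-type lectin receptor of myeloid cells. The other members are not surface receptors. Pf4 encodes the chemokine CXCL4, best known from platelets, Cbr2 a carbonyl reductase, and F13a1 the catalytic A subunit of coagulation factor XIII, a transglutaminase that cross-links fibrin.

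RefSeq promoter entries (GRCm38.p6) were present for 7 of the 8 members, with 9 entries in all. The 250 bases before the transcription start are shown for Mrc1, Pf4 and Cbr2, which fell together after LPS in Ccr2-/- sdCAMs (below) and had a single entry each. Capitals mark GAGGAA on either strand, the core letters bound by the myeloid factor PU.1.
Mrc1, chr2:14229164-14229413, plus strand: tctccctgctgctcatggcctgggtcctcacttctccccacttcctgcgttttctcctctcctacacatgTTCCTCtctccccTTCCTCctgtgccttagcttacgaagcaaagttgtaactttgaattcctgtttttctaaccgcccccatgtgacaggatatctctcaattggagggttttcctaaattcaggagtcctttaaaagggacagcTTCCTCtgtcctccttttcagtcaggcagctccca
Pf4, chr5:90772185-90772434, plus strand: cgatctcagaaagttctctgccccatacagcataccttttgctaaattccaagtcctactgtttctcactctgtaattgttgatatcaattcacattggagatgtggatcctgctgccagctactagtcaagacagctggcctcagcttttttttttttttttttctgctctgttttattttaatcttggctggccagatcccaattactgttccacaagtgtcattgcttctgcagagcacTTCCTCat
Cbr2, chr11:120732022-120732271, minus strand: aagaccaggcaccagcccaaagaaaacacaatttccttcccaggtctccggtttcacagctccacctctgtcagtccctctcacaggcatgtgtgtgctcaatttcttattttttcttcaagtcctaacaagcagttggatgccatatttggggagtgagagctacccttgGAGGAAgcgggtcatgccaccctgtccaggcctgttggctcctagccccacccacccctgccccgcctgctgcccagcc
Mrc1 held 3 copies and Pf4 and Cbr2 1 each. Over all members, 5 of the 9 entries held the letters, against 23.3% of 32851 mouse promoters of the same length. TGAGTCA, the AP-1 motif, was found in 1 of the 9 entries (Folr2), against 4.46% of all promoters. TGCTGAC, part of the MAF recognition element, and TTCCNNGAA, a STAT motif, were found in 0 of the 9, against 3.81% and 4.06%. None of these motifs overlapped another in the printed sequences.

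Library totals were 1705930 to 7699790 counts in WT sdCAMs, 2060240 to 9850283 in reporter sdCAMs and 7497764 to 11330781 in all other libraries. Levels below are CPM, counts relative to library size after TMM scaling over all 54 libraries, and a gene was called where its adjusted p was under 0.05 and its log2 fold change over 1 in size, by edgeR's quasi-likelihood test with Benjamini-Hochberg adjustment over all genes tested. Ccr2, the targeted gene, lay at 51, 17 and 28.9 CPM in untreated WT sdCAMs and at 2.82, 2.33 and 5.21 CPM in untreated Ccr2-/- sdCAMs. After LPS in CTL mice that order was reversed in sdCAMs, with 0 to 0.755 CPM in WT and 3.05 to 5.48 CPM in the libraries labelled Ccr2-/-. In untreated MG the ranges overlapped, at 3.08 to 8.53 CPM in WT and 4.71 to 6.48 CPM in Ccr2-/- mice. The knockout could thus be checked in untreated sdCAMs only. Microglial markers summed to 8167 to 54508 CPM in MG and to 488 to 13102 CPM in sdCAMs, with none of the 10 markers at 0 throughout a group. Choroid plexus was removed before sorting, and its markers summed to at most 1891 CPM, in WT sdCAMs after LPS (CTL).

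Several sdCAM libraries stood apart and bear on the results. The labels of 6 WT sdCAM libraries (all CTL LPS, untreated mice 9 and 14, and BLZ945 mouse 12) carry an unexplained correction mark, and in them genes whose longest coding transcript is under 1000 nt took 12.0 to 37.5% of counts, compared with 4.13 to 6.48% in the unmarked WT sdCAMs. Among reporter sdCAMs that share was 19.3 to 22.0% in tdT- cells after LPS, 4.03 to 5.53% in tdT+ cells after LPS and 6.13 to 9.08% after PBS. In Ccr2-/- sdCAMs it was 5.83 to 9.77%. tdT+ sdCAMs of mouse 5 after LPS had 10885 CPM of microglial markers, against 824 and 878 CPM in the other tdT+ libraries after LPS. A further conflict concerned 2 reporter columns after LPS, that of tdT- cells from mouse 1 and that of tdT+ cells from mouse 7, whose names carry each other's sequencing index. Sex-linked transcripts also went against these labels, because MG and tdT+ sdCAMs of mouse 1 had 0 and 1 counts of Xist whereas its tdT- sdCAMs had 1580, and MG and tdT- sdCAMs of mouse 7 had 7841 and 1037 whereas its tdT+ sdCAMs had 0. With the columns exchanged, both the index and the Xist counts would match within each mouse. Both columns followed their labelled tdT groups in Pf4 and short-transcript share. As labelled, Ddx3y, Eif2s3y and Kdm5d, 3 of the 5 sex-linked genes, were at 0 in all tdT- libraries after LPS. None of the 5 was at 0 throughout the tdT+ libraries after LPS, and the part of sex in tdT differences was not tested. The columns were used as labelled, and the calls for LPS and for tdT state in reporter sdCAMs are also given with the columns exchanged or without them.

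The first question was how sharply the members separated the sorted cell types. All 8 were high in sdCAMs and at or near 0 in MG under every condition. Of the 30 sdCAM libraries, all 30 exceeded every one of the 24 MG libraries for each member except Folr2, for which 28 did. Counts in MG reached at most 13 for Lyve1, 20 for Pf4, 25 for Folr2 and Clec12a, 26 for Cbr2 and 38 for Cd163, and Lyve1 had no count in 20 of the 24 MG libraries. Mrc1, the sort marker, reached 127 counts in MG, or 12.6 CPM, and its lowest sdCAM library held 289 CPM. F13a1 reached 161 counts in MG, or 14.2 CPM, and its lowest sdCAM library held 390 CPM. In bulk samples, fewer cells of a type and less RNA per cell cannot be told apart.

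**Figure D1:**
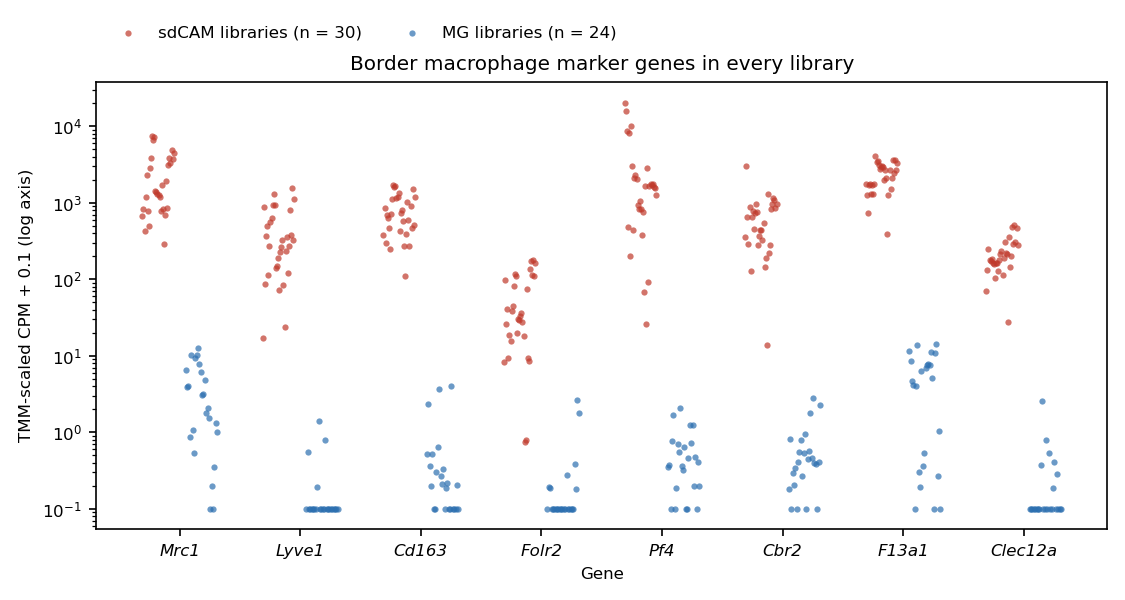
Each dot is the level of 1 gene in 1 library, as TMM-scaled CPM plus 0.1 on a log axis, for the 30 sdCAM libraries (red) and the 24 MG libraries (blue). The colours overlap for Folr2 alone, where 2 sdCAM libraries reach down to the MG range.

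In untreated WT mice, the mean of Cd163 was 820 CPM in sdCAMs and 0.389 CPM in MG, a ratio of 2106, and that of Pf4 was 3907 and 0.885 CPM, a ratio of 4417. Folr2 had no count in untreated WT MG and was at least 103-fold higher in sdCAMs, taken against 3 counts per library. The same bound for Lyve1 in reporter mice after PBS was at least 4085-fold in tdT- sdCAMs and at least 1142-fold in tdT+ sdCAMs. In all 10 comparisons of sdCAMs with MG of the same condition, the 7 members other than Mrc1 were called higher in sdCAMs, with log2 fold changes of 6.35 to 16.32 and adjusted p of at most 0.0412 (edgeR quasi-likelihood test). Fitted values of that size depend on the prior count where MG is near 0. All genes tested were called in 17.2%, 35.5% and 17.7% in WT mice (untreated, CTL LPS and BLZ945 LPS) and in 14.9%, 18.2% and 15.4% in Ccr2-/- mice. In reporter mice the share was 8.53% for tdT+ and 6.46% for tdT- after PBS, and 1.51% and 16.1% after LPS. The weakest call was Folr2 in tdT+ sdCAMs after LPS, where the log2 fold change was 6.36 ± 1.55 (SE, adjusted p = 0.0412) and fell to an adjusted p of 0.124 with the mouse as a block. It was also lost without the sdCAM library of mouse 1 or 7 or the MG library of mouse 1, 5 or 7 (adjusted p = 0.0966 to 0.219) and with the 2 conflicting columns exchanged (0.0548). Its sdCAM libraries held 18.3, 0.704 and 9.25 CPM. That of mouse 5 lay above the MG of this comparison, at most 0.281 CPM, but within the range over all MG libraries, at most 2.58 CPM.

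Among sdCAMs given PBS, the members spanned a wide range of levels. Per kilobase of the longest coding transcript, Pf4 was the highest member in each of the 4 groups given PBS, with means from 2596 to 6644 CPM per kb. Its SD was 6772 CPM per kb in WT mice, as large as the mean, and 198 CPM per kb in Ccr2-/- mice. In Ccr2-/- sdCAMs Mrc1 followed at 1319 ± 83.1 CPM per kb (SD, n = 3), then F13a1 at 932 ± 100 and Cbr2 at 731 ± 114, which lay within about 2 SDs of each other. Cd163 (375 ± 8.61) and Lyve1 (365 ± 74.1) did not differ beyond their spread, and Folr2 (85.2 ± 15.7) and Clec12a (60 ± 7.93) were lowest. In WT sdCAMs Folr2 was the lowest member, at 25.5 ± 15.6 CPM per kb.

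The next comparison asked what LPS did to these genes in sdCAMs. In Ccr2-/- sdCAMs the receptors Mrc1, Lyve1 and Folr2 fell together with Pf4 and Cbr2, whereas Cd163, F13a1 and Clec12a were not called. Mrc1 lay at 7422, 6580 and 7259 CPM in untreated mice and at 1438, 1374 and 1299 CPM after LPS. Every LPS library was below every untreated one, and the log2 fold change was -2.37 ± 0.17 (SE, adjusted p = 5.68e-07). Lyve1 lay at 926, 1304 and 941 CPM untreated and at 142, 149 and 190 CPM after LPS, again without overlap, with a log2 fold change of -2.72 ± 0.37 (adjusted p = 0.000121). Folr2 fell from 81.1 to 116 CPM to 19.9 to 30.5 CPM (log2 fold change -1.95 ± 0.25, adjusted p = 7.07e-05). Pf4 and Cbr2 changed less, by -1.20 ± 0.23 and -1.16 ± 0.21 (adjusted p = 0.00158 and 0.00101), and Cbr2 was no longer called without CTL LPS mouse V1m (-0.99). Cd163 lay at 1626 to 1701 CPM untreated and 1146 to 1345 CPM after LPS, a log2 fold change of -0.45 ± 0.19 (adjusted p = 0.103). F13a1 and Clec12a had values of -0.32 ± 0.16 and 0.47 ± 0.28 (adjusted p = 0.163 and 0.245). Thus 5 of 8 members were called, all lower, beside 21.4% of all genes tested in either direction. Without regard to the test, 7 members were lower and 1 higher with no overlap between the groups, beside 24.2% and 24.1% of all genes. The median log2 fold change of the members was -1.18 and that of all genes -0.05.

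**Figure D2:**
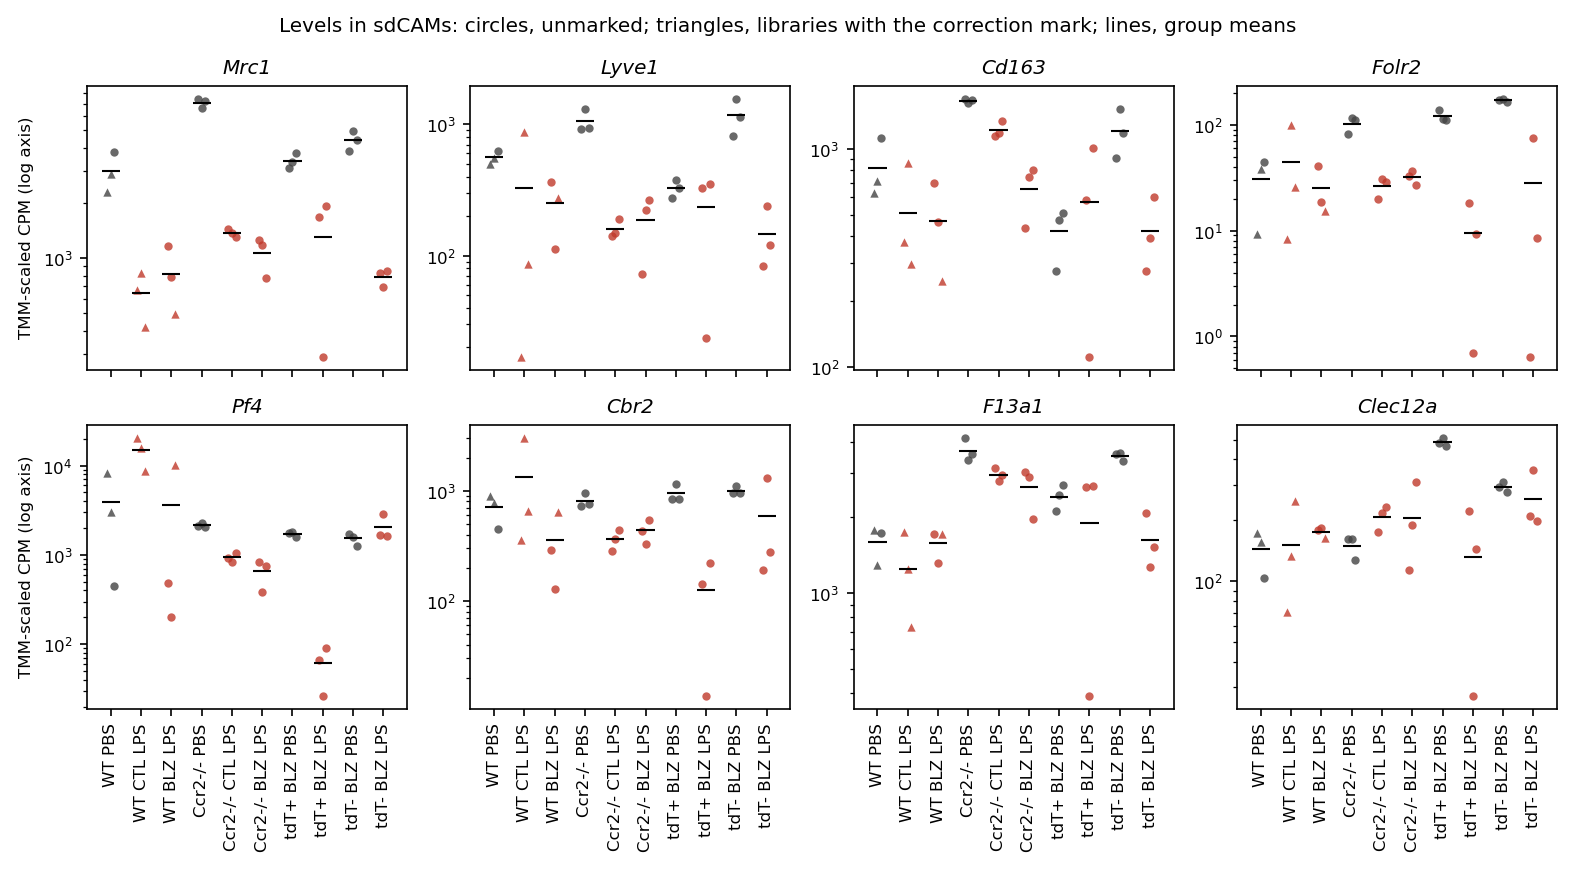
Each panel plots 1 member in the 10 sdCAM groups, as TMM-scaled CPM on a log axis, with 1 symbol per library (grey PBS, red LPS, triangles for libraries with the correction mark) and a line at the group mean. Mrc1 is lower in every LPS library than in every PBS library of the same kind of mouse and cell, and Pf4 spreads most, from 26.3 to 20332 CPM.

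In WT sdCAMs the spread between libraries was far larger, and 0 of the 8 members were called, beside 6.40% of all genes. Mrc1 lay at 2307, 2871 and 3823 CPM untreated and at 669, 833 and 422 CPM after LPS, so the groups did not overlap. Its log2 fold change of -2.09 ± 0.87 (adjusted p = 0.163) was close in size to that in Ccr2-/- sdCAMs. It was called with DESeq2 (adjusted p = 0.000582), with the correction mark as a covariate (0.0315) and among marked libraries alone (0.0238). Mrc1 was the 1 member lower without overlap and Pf4 the 1 member higher, beside 19.3% and 16.5% of all genes. Lyve1 shows the scatter, with 501, 556 and 623 CPM untreated but 17, 872 and 86.9 CPM after LPS. The CTL LPS library of mouse 4 was the highest of its group for Mrc1, Lyve1, Cd163, Folr2 and Cbr2, and that of mouse 1 the lowest for Lyve1, Folr2, Cbr2 and Clec12a. An unadjusted p under 0.05 was found for 2619 of all genes in this comparison.

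Pf4 in WT sdCAMs moved with the make-up of the libraries. It lay at 8258, 3020 and 443 CPM in untreated mice 9, 14 and 15 and at 20332, 15687 and 8715 CPM after LPS, and the log2 fold change of 2.02 ± 1.67 was not called (adjusted p = 0.488). In BLZ945 mice after LPS it lay at 483 and 203 CPM in mice 8 and 11 and at 10047 CPM in the marked library of mouse 12. All 6 marked libraries held at least 3020 CPM of Pf4, and the 3 unmarked ones at most 483 CPM. At 588 nt, Pf4 has the shortest coding transcript of the 8 members, and the marked libraries were those rich in short transcripts. For LPS in WT sdCAMs, the Pf4 value was 1.28 with the mark as a covariate (adjusted p = 0.277), 1.48 among marked libraries alone (0.188) and -0.07 with the share of short transcripts as a covariate (0.968). Pf4 itself counts toward that share in every such fit. In WT sdCAMs the share was also higher in every marked library than in any unmarked one. Platelet markers summed to at most 24.5 CPM in any sdCAM library, and in WT sdCAMs after LPS (CTL) Gp1ba and Treml1, 2 of the 5 platelet markers, were at 0. Against MG of that condition, 1 of the 4 that passed the filter was called higher in sdCAMs, beside 35.5% of all genes. For LPS in WT sdCAMs 1 marker passed the filter, and its value of 1.27 was not called. The part of platelet RNA in the Pf4 levels was not tested.

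**Figure D3:**
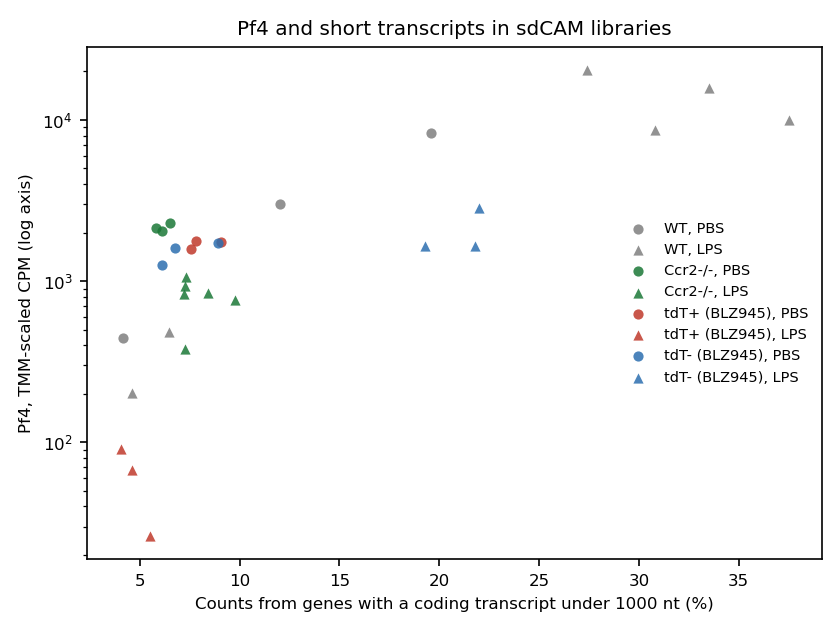
Each point is 1 of the 30 sdCAM libraries, with the percentage of counts from genes whose longest coding transcript is under 1000 nt on the x axis and Pf4 (TMM-scaled CPM, log axis) on the y axis, coloured by population and shaped by PBS (circle) or LPS (triangle). The 5 libraries highest in Pf4, at 8258 to 20332 CPM, are WT libraries with the correction mark, and the 3 lowest are tdT+ cells after LPS, at 26.3 to 91.5 CPM.

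Whether the LPS response of sdCAMs differed between genotypes was tested directly by an interaction term over 18 libraries. None of the 8 members was called, beside 0% of all genes, although 1763 genes had an unadjusted p under 0.05. For Mrc1 the difference between the log2 fold changes was -0.08 ± 0.44 (adjusted p = 0.969) and for Pf4 -3.02 ± 1.62 (adjusted p = 0.447). With no filter on low counts, edgeR called Folr2, Pf4 and Cbr2. At rest, Ccr2-/- sdCAMs had more Mrc1 and F13a1 than WT sdCAMs. F13a1 lay at 4129, 3366 and 3557 CPM in Ccr2-/- and at 1782, 1291 and 1733 CPM in WT mice, with a log2 fold change of 1.23 ± 0.29 (adjusted p = 0.0119), and Mrc1 was higher by 1.28 ± 0.32 (adjusted p = 0.0153). These were 2 of 8 members, beside 9.13% of all genes, and 5 members were higher without overlap, beside 18.1%. Mrc1 was not called with the mark as a covariate (0.82, adjusted p = 0.19), without WT mouse 9 (adjusted p = 0.0566) or without Ccr2-/- mouse 1m or 5f (0.0545 and 0.0527). F13a1 was not called without mouse 1m (0.0549). Pf4 was not called (-0.87, adjusted p = 0.672) but turned and was called with the mark as a covariate (2.74, 0.00261) or the share of short transcripts (1.25, 0.01). WT and Ccr2-/- counts come from separate tables, with 1929070 to 3049028 counts in untreated WT and 8124128 to 8929948 in untreated Ccr2-/- sdCAMs, and genotype cannot be told apart from table and depth. Microglial markers summed to 6540 to 13102 CPM in these WT and 5627 to 7624 CPM in these Ccr2-/- libraries, with 4 of 10 called lower in Ccr2-/- sdCAMs, and their part in the genotype differences was not tested.

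Repopulation was examined by comparing BLZ945 with CTL mice, both after LPS. In sdCAMs 0 of the 8 members were called in either genotype, beside 0% of all genes in WT and 0.00837% in Ccr2-/- mice, where an unadjusted p under 0.05 was found for 773 and 999 genes. In Ccr2-/- sdCAMs the largest value was that of Cd163, at 1146, 1187 and 1345 CPM in CTL and 432, 741 and 799 CPM in BLZ945 mice, a log2 fold change of -0.92 ± 0.19 (adjusted p = 0.209). Cd163 and Mrc1 were lower without overlap, 2 of 8 members, beside 6.39% of all genes. In WT sdCAMs Pf4 had the largest value, -2.10 ± 1.67 (adjusted p = 0.763). Without BLZ945 mouse 12, its marked library, Pf4 was called (-5.51, adjusted p = 0.0303), as was the difference between genotypes (4.83, adjusted p = 0.0183). In the WT libraries of both fits, every CTL library was then marked and no BLZ945 library was. BLZ945 and the mark cannot be told apart there. With all libraries that difference was 1.60 ± 1.60 (adjusted p = 0.749), and 0 members were called, beside 0% of all genes, with 1334 genes at an unadjusted p under 0.05.

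In the reporter mice, all sdCAMs had passed through BLZ945 treatment, and LPS was compared with PBS separately in tdT+ and tdT- cells. In tdT+ cells Pf4, Cbr2, Clec12a and Folr2 were called lower, 4 of 8 members beside 13.4% of all genes. In tdT- cells Mrc1 and Lyve1 were called lower, 2 of 8 beside 26.6%. The test of the difference between these responses called Pf4 alone, as described below.

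Pf4 in tdT+ cells lay at 1746, 1781 and 1582 CPM after PBS and at 67.2, 26.3 and 91.5 CPM after LPS, a log2 fold change of -4.79 ± 0.47 (adjusted p = 2.45e-05). In tdT- cells it lay at 1726, 1598 and 1255 CPM after PBS and at 1648, 2851 and 1647 CPM after LPS, and the value of 0.42 ± 0.40 was not called (adjusted p = 0.457). Cbr2 in tdT+ cells went from 837, 1162 and 847 CPM to 143, 13.7 and 219 CPM (-2.92 ± 0.78, adjusted p = 0.021). Clec12a went from 481, 510 and 466 CPM to 223, 27.2 and 144 CPM (-1.89 ± 0.51, adjusted p = 0.0215). For each of these genes mouse 5 was the lowest LPS library, the one rich in microglial markers. Without it, Pf4, Cbr2 and Clec12a were still called and Folr2 was not (-3.14, adjusted p = 0.0937). Folr2 was also lost without any other single library of the comparison (adjusted p = 0.052 to 0.135), Cbr2 without mouse 1 after LPS or mouse 175 after PBS (0.0667 and 0.0645), and Clec12a without mouse 7 after LPS (0.0623). With the 2 conflicting columns exchanged, Pf4 (-1.55, adjusted p = 0.495) and Clec12a (-1.66, 0.0894) were lost, and without both columns Clec12a alone (-1.97, 0.074).

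Mrc1 in tdT- cells lay at 3829, 4951 and 4421 CPM after PBS and at 825, 697 and 849 CPM after LPS, a log2 fold change of -2.48 ± 0.51 (adjusted p = 0.00182). Lyve1 went from 814, 1560 and 1129 CPM to 83.9, 237 and 120 CPM (-2.99 ± 0.69, adjusted p = 0.00435). In tdT+ cells Mrc1 lay at 3108, 3334 and 3750 CPM after PBS and at 1684, 289 and 1932 CPM after LPS (-1.38 ± 0.49, adjusted p = 0.074), and Lyve1 at 273, 378 and 329 CPM and 330, 23.4 and 352 CPM (-0.47 ± 0.64, adjusted p = 0.686). Mrc1 was lower without overlap in both populations. In each, 5 of 8 members were lower without overlap, beside 18.4% of all genes in tdT+ and 24.6% in tdT- cells, and 0 were higher. With the share of short transcripts as a covariate, the calls of Mrc1 and Lyve1 in tdT- cells were lost and the signs turned (0.65 and 1.20, adjusted p = 0.931 and 0.907). That share and LPS moved together among tdT- libraries. Both genes were called with the 2 conflicting columns exchanged (-1.93 and -2.30, adjusted p = 0.0396 and 0.0487) and without them (-2.53 and -2.72, 0.00835 and 0.0273).

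**Figure D4:**
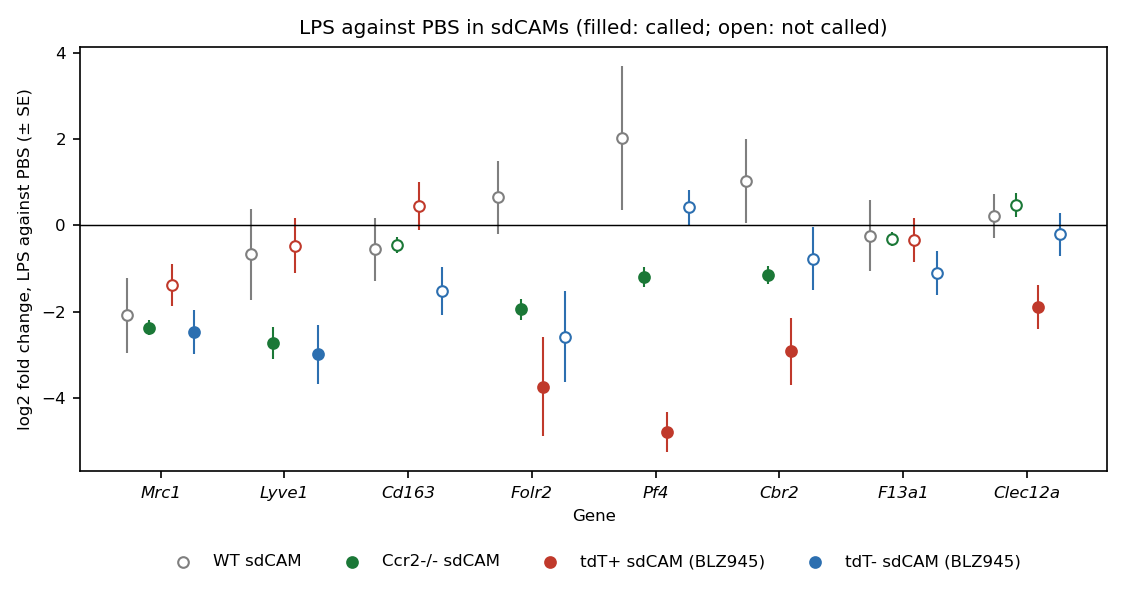
Points are log2 fold changes of LPS against PBS for each member in the sdCAMs of 4 mouse and cell populations, with SE bars from the edgeR fits, filled where called and open where not. Mrc1 lies below 0 in all 4 populations, and Pf4 ranges from -4.79 in tdT+ cells to 2.02 in WT cells, the latter not called.

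Before LPS, the levels of several receptors lay apart in tdT+ and tdT- sdCAMs of the same mice, but no member had an adjusted p under 0.05. Lyve1 lay at 273, 378 and 329 CPM in tdT+ cells and at 814, 1560 and 1129 CPM in tdT- cells of mice 174, 175 and 177. The groups did not overlap, and the log2 fold change was -1.84 ± 0.66 (adjusted p = 0.87). Cd163 lay at 276, 470 and 508 CPM in tdT+ and at 906, 1530 and 1189 CPM in tdT- cells (-1.54 ± 0.56, adjusted p = 0.881). Clec12a was on the other side, with 481, 510 and 466 CPM in tdT+ and 291, 311 and 277 CPM in tdT- cells (0.72 ± 0.49, adjusted p = 1). No member was called, beside 0.0236% of all genes, with 564 genes at an unadjusted p under 0.05. Lyve1, Cd163, Folr2, F13a1 and Mrc1 were lower in tdT+ cells without overlap, 5 of 8 members beside 7.45% of all genes, and Clec12a was higher, beside 5.77%. This fit shared its estimate of spread with the LPS libraries. With only the 6 PBS libraries Lyve1 was called (adjusted p = 0.0284), and with no filter on low counts Lyve1 and Cd163 were called (0.000746 and 0.0145). None of the conflicting columns enters the levels after PBS. Dendritic cell markers summed to 71.5 to 133 CPM in tdT+ and to 383 to 556 CPM in tdT- cells after PBS, with Xcr1 and Ccr7, 2 of the 5, at 0 in tdT+ cells. None of the 4 that passed the filter was called, and their part in these differences was not tested.

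**Figure D5:**
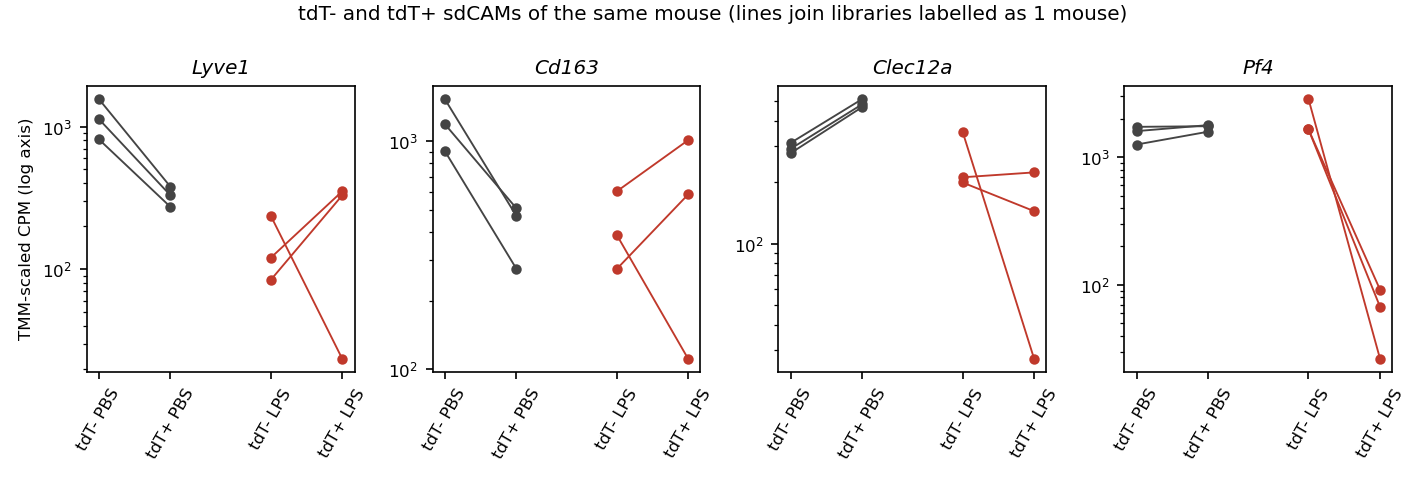
Lines join tdT- and tdT+ sdCAM libraries labelled as the same mouse, after PBS (grey) and after LPS (red), for 4 members, as TMM-scaled CPM on log axes. After PBS all 3 lines fall for Lyve1 and Cd163 and rise for Clec12a, whereas after LPS all 3 lines fall for Pf4.

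After LPS, Pf4 was 1648, 2851 and 1647 CPM in tdT- and 67.2, 26.3 and 91.5 CPM in tdT+ cells, a log2 fold change of -5.06 ± 0.47 (adjusted p = 4.7e-06). It was the 1 member called, beside 10.8% of all genes, and the 1 member lower without overlap, beside 11.4%. The interaction of tdT state and LPS also called Pf4 alone (-5.21 ± 0.59, adjusted p = 6.6e-05), beside 5.31% of all genes. Both Pf4 calls were lost when the 2 columns of conflicting index were exchanged (-1.40, adjusted p = 0.95, and -1.55, adjusted p = 1). Without both columns Pf4 was called in both tests, and Cbr2 was then also called between tdT+ and tdT- cells after LPS (-3.34, adjusted p = 0.0402). The 2 columns held 1648 CPM of Pf4 (tdT- cells of mouse 1) and 91.5 CPM (tdT+ cells of mouse 7), with short-transcript shares of 21.8 and 4.03%. With these columns in the fit the Pf4 calls depend on their labels. Without the columns the calls were kept, on tdT+ cells of mice 1 and 5 and tdT- cells of mice 5 and 7 after LPS. The tdT+ library of mouse 5 was the one rich in microglial markers. Neutrophil markers summed to 598 to 2359 CPM in tdT- and to 16.3 to 70.9 CPM in tdT+ cells after LPS. Ly6g, Retnlg and Ngp, 3 of the 6, were at 0 in both, as was S100a9 in tdT+ cells. Of the 2 that passed the filter, 1 was called lower in tdT+ cells. The part of neutrophil RNA in the Pf4 difference was not tested. With the share of short transcripts as a covariate, the Pf4 value was -6.31 (adjusted p = 1). Without tdT+ mouse 5, Mrc1 was called higher in tdT+ than in tdT- cells after LPS (1.23, adjusted p = 0.00383), and the interaction called Mrc1 (1.60, adjusted p = 0.00743), Lyve1 (3.09, 0.00195), Cd163 (2.48, 0.0104) and F13a1 (1.27, 0.0458) as well, each with a higher log2 fold change after LPS in tdT+ than in tdT- cells. With all libraries and the 2 columns exchanged, these values were 0.06, 1.14, 0.49 and 0.45 (each adjusted p = 1).

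MG were examined for gain of these genes with inflammation. F13a1 rose in WT MG, and most of the other members were too low to be tested. In WT MG it went from 0, 2 and 1 counts in untreated mice to 139, 94 and 54 counts after LPS, that is from at most 0.204 CPM to 11.5, 8.44 and 4.63 CPM, and the log2 fold change was 6.23 ± 0.84 (adjusted p = 0.000201). The summed counts, 287 against 3, gave a ratio of 89.3 relative to library size, with a 95% exact binomial interval of 30.3 to 436 for counting error alone. In WT MG of BLZ945 mice after LPS it had 42, 50 and 161 counts. The sdCAMs of CTL mice after LPS held 733 to 1744 CPM, so MG stayed far below them. In the same WT MG libraries after LPS, Clec12a was at 0, Folr2 had at most 1 count and Pf4 at most 3 counts. The most of any other member except Mrc1 was 25 counts of Cd163, in the MG library of mouse 4. Monocyte markers summed to 0.638 to 0.814 CPM in untreated WT MG and to 2.6 to 13.8 CPM in these libraries. Of the 2 monocyte markers that passed the filter, 1 was called higher. The part of monocyte or sdCAM RNA in the F13a1 rise was not tested. F13a1 and Mrc1 were the 2 members that passed the filter on low counts in WT and Ccr2-/- MG, and both were called in WT MG, beside 16.6% of all genes. Mrc1 lay at 9.99, 9.36 and 10.2 CPM untreated and at 6.38, 3.77 and 3.94 CPM after LPS (-1.06 ± 0.37, adjusted p = 0.0428). That call was lost without any single library except CTL mouse 1.

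In Ccr2-/- MG, F13a1 had 63, 3 and 4 counts in untreated mice and 90, 86 and 90 counts after LPS, and its log2 fold change of 1.69 ± 0.81 was not called (adjusted p = 0.124). The untreated library of mouse 1m also held the most Cd163 (36), Clec12a (25), Lyve1 (13) and Pf4 (20) of its group. Without it F13a1 was called (4.41, adjusted p = 0.000156). Mrc1 was called lower (-1.26 ± 0.44, adjusted p = 0.0378), 1 of 8 members beside 19.4% of all genes, and the call was lost without mouse 1m, 3m, V1m or V2m. Reporter MG after LPS had 0, 111 and 151 counts of F13a1 and after PBS 2, 9 and 0 counts. No member passed the filter there, and none was tested. Between BLZ945 and CTL MG after LPS, Mrc1 was called lower in WT mice (0.774, 0.956 and 0.428 CPM against 6.38, 3.77 and 3.94 CPM, -2.67 ± 0.42, adjusted p = 0.0432), beside 0.0848% of all genes. It was not called with only the libraries compared (adjusted p = 0.381). In Ccr2-/- MG 0 members were called, beside 0.0173% of all genes, with 758 genes at an unadjusted p under 0.05, and Mrc1 had a value of -1.09 ± 0.46 (adjusted p = 0.73).

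Whether LPS acted differently in sdCAMs and MG was tested by interaction terms over the 18 libraries of a genotype. In WT mice F13a1 was called (-6.45 ± 0.86, adjusted p = 0.000621), with a rise in MG and no call in sdCAMs, 1 of 8 members beside 1.46% of all genes. It held in each of the 12 fits that left out 1 library. In Ccr2-/- mice Mrc1 was called (-1.07 ± 0.33, adjusted p = 0.0474), beside 6.92% of all genes, and the call was lost when any of 9 libraries was left out. Mrc1 is the sort marker, so this term is not free of the gate. With the mouse as a block F13a1 was called there too (-2.37, adjusted p = 0.0441).

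A further 16 genes known from border macrophages were counted beside the members. In untreated mice 15 of the 16 were called higher in sdCAMs than in MG in both genotypes, as were 15 in tdT+ and in tdT- sdCAMs after PBS. Against MG after LPS, 11 (CTL) and 11 (BLZ945) were called higher in WT sdCAMs and 13 and 12 in Ccr2-/- sdCAMs. In reporter mice 9 were called higher in tdT+ and 11 in tdT- cells after LPS. In each Ccr2-/- comparison after LPS and in that of tdT- cells 1 was called lower. The shares of all genes called in these comparisons are given above. After LPS, 14 of the 16 fell in Ccr2-/- sdCAMs and 2 rose, 4 fell in WT sdCAMs, 8 fell and 2 rose in tdT+ cells, and 11 fell in tdT- cells. Of all genes, 21.4%, 6.4%, 13.4% and 26.6% were called in these comparisons, in either direction and in that order. Those with the smallest adjusted p in Ccr2-/- sdCAMs were the scavenger receptor Stab1 (-2.91 ± 0.17), the binding protein of insulin-like growth factors Igfbp4 (-2.66 ± 0.16) and Hpgd, which degrades prostaglandins (-5.67 ± 0.42), while the NAD-consuming ectoenzyme Cd38 rose (3.04 ± 0.19). The medians over the list in the 4 LPS comparisons were -1.90, -1.79, -1.73 and -2.62 in that order, and those of all genes -0.05, -0.08, 0.02 and 0.04. In WT and Ccr2-/- MG, 5 of these genes rose after LPS and 3 fell, of 10 and 11 that passed the filter, beside 16.6% and 19.4% of all genes. Over the same comparisons, 5 of the 6 monocyte markers (all that passed the filter) rose in Ccr2-/- sdCAMs, where they summed to at most 0.116 CPM untreated and 298 to 442 CPM after LPS. In WT sdCAMs 2 of them rose, in tdT+ cells 3 and in tdT- cells 1. Of 10 microglial markers, 7 fell in Ccr2-/-, 5 in WT and 8 in tdT- sdCAMs, while in tdT+ cells 1 fell and 1 rose. Their part in the members' changes was not tested.

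The genes whose level most resembled the mean profile of the members over the 18 group means were Ms4a7 (Pearson r = 0.994), Vav3 (0.993), Serpinb8 (0.992), Foxred2 (0.991) and Rgs18 (0.99), of 10516 genes compared. The points share libraries and are dominated by the gap between sdCAMs and MG.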

How the data were processed

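RNA of FACS-sorted cells was amplified with a SMARTer kit and made into Nextera XT libraries, which were sequenced as single reads. Per the labels, the authors aligned reads with STAR 2.7.11a and counted them per gene with featureCounts 2.0.8. What the authors deposited are whole-number counts by gene symbol in 3 tables of 18 columns, of which 0 were left unmatched. WT and Ccr2-/- libraries share a batch label. The study corrected its WT and Ccr2-/- data with ComBat-seq, whether before deposit is not given in the sources used here, and no batch correction was made here. The build was named as mm10 or GRCm39, so no coordinates of the counted genes are given, and promoters were read from RefSeq tables of GRCm38.p6. Without molecular identifiers, duplicates stayed in the counts, and bounds cover counting error only. The strand setting is not given in the sources used here.

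Counts were fitted with edgeR 4.0.16 in R 4.3.3 (filterByExpr, TMM, robust glmQLFit, two-sided glmQLFTest). Cell types were compared over the 18 libraries of a table, and LPS, BLZ945 and tdT state over the libraries of 1 cell type. The fit was tested on simulated data. Bounds against groups without a count used 3 counts per library. Transcript lengths (GENCODE vM21) covered at least 94.3% of each library's counts. For 12 Ccr2-/- libraries after LPS, the title and the characteristic disagree on the cell type, and the characteristic, which matches the library name, was used. Alternatives were DESeq2 1.42.0, median-of-ratios size factors, other filters and call rules, fits of the compared libraries alone, each library left out, the mouse as a block, the correction mark, the exchange of 2 columns and plain CPM. The share of short transcripts as a covariate and the omission of those 2 columns were added after seeing the data.

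MG and sdCAMs with the same number came from the same mouse per the labels. The correlations of paired deviations from group means were 0.001 to 0.202 in WT, -0.127 to 0.33 in Ccr2-/- and -0.056 to 0.211 in reporter mice, and the block was an alternative. The genes named by rule were the 8 members, looked up in every comparison. Beyond them, genes of the list of other border macrophage genes were named by smallest adjusted p and like-pattern genes by correlation. The members, lists and tests were chosen with earlier results of these data known.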

Additional observations from a re-analysis of the deposited data

Results flagged for a closer look

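The response to LPS differed between groups, by a test of the difference itself, for 3 members. F13a1 differed between sdCAMs and MG of WT mice (-6.45 on the log2 scale, sdCAMs minus MG), with a rise in MG of 6.23 ± 0.84 and a value in sdCAMs of -0.24 ± 0.83, which was not called. It was called in all 12 fits that left out 1 library and with the mouse as a block (-6.44, adjusted p = 0.000816, edgeR).

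Mrc1 differed between sdCAMs and MG of Ccr2-/- mice (-1.07, adjusted p = 0.0474). Its level fell in both cell types, by 2.37 and 1.26 on the log2 scale, and MG held at most 12.6 CPM of this sort marker. The call was lost when any of 9 of the 12 libraries was left out and with median-of-ratios size factors (-1.03, adjusted p = 0.0566).

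Pf4 differed between tdT+ and tdT- sdCAMs as labelled (-5.21). The call was lost when the 2 columns whose index numbers and Xist counts conflict with their labels were exchanged (-1.55, adjusted p = 1), and was kept without both (-5.75, 0.000626). Its libraries after LPS also differed in the share of counts from short transcripts, 4.03 to 5.53% against 19.3 to 22.0%, and with that share as a covariate the value was -6.55 (adjusted p = 1). With 3 libraries a group, single libraries were not screened for distance from their group.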

How the results depend on the processing

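Counts of members called (edgeR, or DESeq2 where named) moved in these comparisons. With no filter on low counts, 2 were called for cell type by LPS in WT and 4 in Ccr2-/- mice, 1 for LPS in WT MG, 5 for LPS in tdT- cells, 2 for tdT state after PBS, 3 after LPS, 5 for tdT state by LPS and 3 for genotype by LPS. The study's low-count rule gave 1 for LPS in WT MG and 0 in Ccr2-/- MG. DESeq2, the mark as a covariate and marked libraries alone each gave 1 (Mrc1) for LPS in WT sdCAMs. Median-of-ratios size factors gave 0 for cell type by LPS in Ccr2-/- mice. Fits of only the libraries compared gave 0 for BLZ945 in WT MG, 4 for LPS in tdT- cells and 1 for tdT state after PBS. Exchange of the 2 conflicting columns gave 2 for LPS in tdT+ cells and 0 for tdT state after LPS and by LPS, and their omission gave 2 for tdT state after LPS. With the share of short transcripts as a covariate, 1 was called for LPS in tdT+ cells and 0 for LPS in tdT- cells, for tdT state after LPS and for tdT state by LPS. In tdT- cells the LPS values of Mrc1 and Lyve1 turned to 0.65 and 1.20, neither called, and the difference of Pf4 between genotypes at rest turned from -0.87, not called, to 2.74 with the mark and to 1.25 with the short-transcript share as a covariate, both called. The cause was not tested in any of these.

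With the mouse as a replicate block, 2 members (F13a1 and Mrc1) were called for cell type by LPS in Ccr2-/- mice, and Folr2 was lost between tdT+ sdCAMs and MG after LPS, where 6 of 7 were called. The block changed no other call of a member. Leaving out 1 library at a time gave 0 to 2 calls for cell type by LPS in Ccr2-/- mice and for genotype at rest, 0 to 1 for BLZ945 in WT sdCAMs and WT MG, for LPS in Ccr2-/- MG and for genotype by BLZ945, 1 to 2 for LPS in WT MG and for tdT state after LPS, 2 to 3 for LPS in tdT+ cells and 1 to 5 for tdT state by LPS. Of the members' log2 fold changes under all alternatives, 2857 kept their direction and side of the threshold, 70 lost a call, 43 gained one and 4 turned. Plain CPM moved 16 of 144 group means by more than 1 SD. Libraries of 1705930 counts set the depth limit in WT sdCAMs, and members at 0 to 3 counts in MG allow no estimate of a change there.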
